A study of Mus musculus with 6 samples.

Results

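The genes described here are the 4 mouse tenascins Tnn, Tnc, Tnr and Tnxb together with Postn and Tgfbi, which encode periostin and the TGF-beta induced protein. They were picked by name as a family of matrix glycoproteins, with their mutant and control levels on these arrays already known, and they are 6 of the 17020 genes that were tested. Chondrocytes of the growth plate, the cartilage layer from which long bones grow in length, had been isolated from femurs and tibiae of mice at postnatal day 30, and their total RNA was hybridised to single-channel Affymetrix arrays. One group was 3 conditional Lkb1 mutant samples and the other was 3 control samples. All mice had a background described as mixed FVB, 129S6 and C57CL/6, and Lkb1 is the older name of Stk11, a kinase gene. The Cre driver, the floxed allele and the genotype of the controls are not given in the sources used here. Replicates are called biological in the titles, which do not say whether each was a separate animal or a pool, so p-values measure only the spread between these samples.

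Tenascins are large oligomeric glycoproteins of the extracellular matrix, built from EGF-like repeats, fibronectin type III repeats and a fibrinogen-like globe. Periostin and Tgfbi are built from FAS1 domains and bind collagens and integrins. Tenascin-C and periostin are known from perichondrium, periosteum, tendon and healing tissue, and expression of both is induced by TGF-beta in many mesenchymal cells. Tenascin-W, the product of Tnn, is found in periosteum and bone-forming tissue, tenascin-R, the product of Tnr, in the nervous system, and tenascin-X, the product of Tnxb, in loose connective tissue.

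Each member had a single probe set annotated to it and no probe set shared with another gene. Values are the deposited intensities, on a linear scale, and differences are mutant minus control means of log2(intensity + 1). A fold is 2 raised to that difference. The background on an array was taken as the 95% point of 1035 olfactory receptor probe sets, which was an intensity of 88.6, 104.9 and 90.5 in mutant replicates 1, 2 and 3, and of 83.3, 95.004 and 99.4 in control replicates 1, 2 and 3. All 6 members passed the filter on low values. Because the mutant and control arrays were used to choose the members, their differences are given as a description, with no p-value, and calls among them are only counted.

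RNA of other cell types also differed between the arrays. Stk11 itself was at 167, 181 and 183 in mutant replicates 1, 2 and 3, against 409.8, 539 and 812 in control replicates 1, 2 and 3. The mean log2 level of 27 erythroid, neutrophil and B lymphoid markers was 6.25, 6.19 and 5.95 in mutant replicates 1, 2 and 3, against 8.52, 9.24 and 9.95 in control replicates 1, 2 and 3. None of the 6 measured erythroid markers exceeded background on any mutant array, and 5 of them did so on all control arrays. The 10 chondrocyte markers, Col2a1, Acan and Sox9 among them, exceeded background on every array. Their summed intensity was 34843 to 37199 in mutants and 35824 to 38582 in controls, and none of the 10 was called different.

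Tnn, Tnc and Postn were far higher in mutant than in control chondrocyte samples, while Tgfbi and Tnxb overlapped between the groups and Tnr did not exceed background on any array. Of the 6 members, 3 were called in the fit over all genes at an adjusted p of 0.05, all higher in mutants, and the same 3 had groups that did not overlap. Over all genes tested, 14.7% were called, 7.84% higher and 6.82% lower in mutants. Among all genes the groups did not overlap for 36.7%, with mutants higher for 20.0%. Nothing is read from the members' count against these shares, since this contrast chose them. The median difference was 1.25 for the 6 members, lying between 0.15 for Tnxb and 2.35 for Tnc, and 0.03 for all genes tested. Nothing is read from these medians either, for the same reason.

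**Figure D1:**
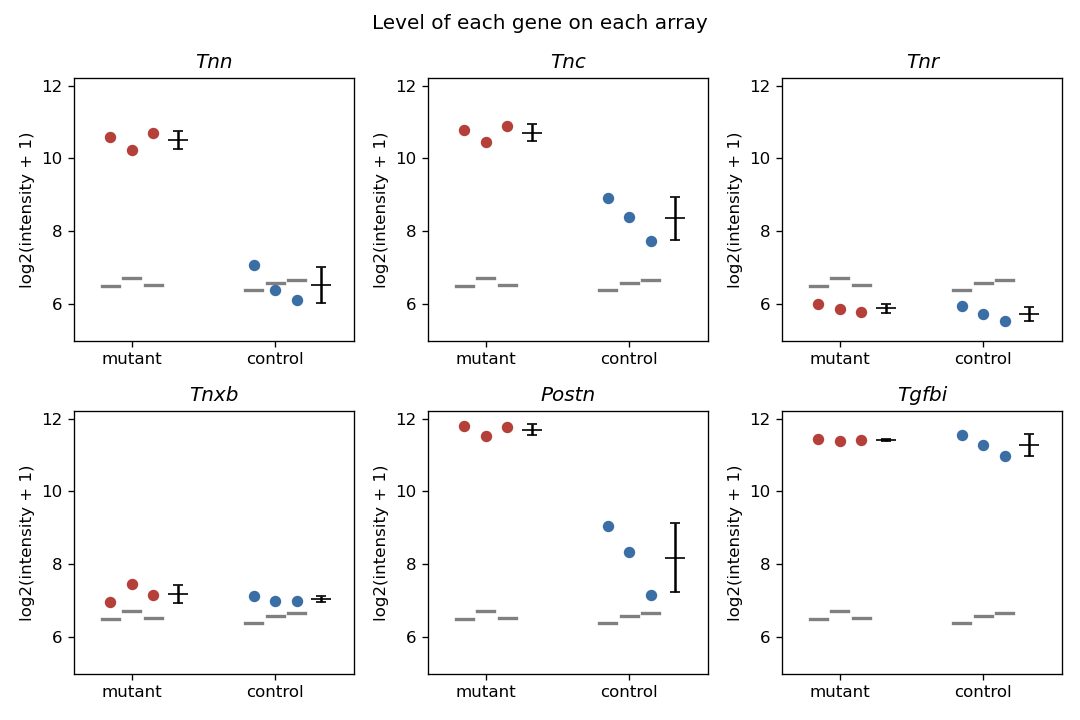
Level of each member on each array as log2(intensity + 1), mutant arrays in red on the left and control arrays in blue on the right, with the mean and SD of each group in black and the background of each array as a grey dash. Tnn, Tnc and Postn are apart between the groups, Tnr lies under the background on all 6 arrays, and Tnxb and Tgfbi overlap.

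Tnn had the largest positive difference of any gene tested. Its intensity was 1537, 1199.7 and 1677 in mutant replicates 1, 2 and 3, against 133, 82.9 and 68.85 in control replicates 1, 2 and 3. The lowest mutant array was 9.0-fold above the highest control array. Tenascin-W transcripts exceeded background in all mutants but only in control replicate 1, so the measured difference of 3.98 (SE 0.24), a 15.8-fold difference, is limited by the background of the controls. Its log2 level was 10.51 ± 0.25 in mutants and 6.53 ± 0.49 in controls (SD, n = 3 each).

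Tnc, which encodes tenascin-C, was also apart between the groups. It was at 1748, 1402 and 1913 in mutant replicates 1, 2 and 3, against 486, 336 and 213 in control replicates 1, 2 and 3. The difference was 2.35 (SE 0.28), 5.11-fold, and it ranked at 17 among all genes from the highest down. Every array exceeded background, and the groups were 2.88-fold apart at their nearest arrays.

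Postn, which encodes periostin, a ligand of integrins and collagen, was at 3540, 2935 and 3486 in mutant replicates 1, 2 and 3, against 531, 321 and 143 in control replicates 1, 2 and 3. The mutant arrays lay within 1.21-fold of each other, while the control arrays spanned 3.72-fold. The difference was 3.51 (SE 0.41), 11.4-fold, and the nearest arrays of the groups were 5.53-fold apart.

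Tgfbi, the FAS1 domain relative of Postn, did not separate the groups. It was at 2772, 2692 and 2738 in mutant replicates 1, 2 and 3, against 3019.6, 2489 and 2011 in control replicates 1, 2 and 3. The mutant values all fell inside the range of the controls. The difference was 0.14 (SE 0.15), and the SD on the log2 scale was 0.02 in mutants and 0.29 in controls. Tnxb was above background throughout, at 124, 174 and 142 in mutant replicates 1, 2 and 3, against 139, 127 and 127 in control replicates 1, 2 and 3. Its groups overlapped, with a difference of 0.15 (SE 0.13). Tnr was at 53.7 to 62.9 in mutants and 45.5 to 60.4 in controls, under the background of all 6 arrays, so it has no fold.

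Sequence upstream of the 3 genes that were high together is shown beside that of Tgfbi, whose groups overlapped. Each is the run of 250 bases before an annotated start, from RefSeq on GRCm38.p6, 5′ to 3′ on the strand of the gene. All 6 members matched the promoter table. Capitals mark the TATA box letters TATAAA and the SMAD box letters CAGAC, read on both strands, so that the complement of the second appears as GTCTG. For Tnc and Postn, which have a pair of annotated starts each, the run before the start further along the gene is printed. The runs are chr1:160153576-160153825 on the minus strand for Tnn, chr4:64046937-64047186 on the minus strand for Tnc, chr3:54360857-54361106 on the plus strand for Postn and chr13:56609336-56609585 on the plus strand for Tgfbi.
Tnn: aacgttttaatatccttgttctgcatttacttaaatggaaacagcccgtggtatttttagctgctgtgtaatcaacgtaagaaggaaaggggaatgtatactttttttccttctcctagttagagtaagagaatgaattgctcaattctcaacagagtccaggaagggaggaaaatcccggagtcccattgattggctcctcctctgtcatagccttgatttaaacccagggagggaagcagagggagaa
Tnc: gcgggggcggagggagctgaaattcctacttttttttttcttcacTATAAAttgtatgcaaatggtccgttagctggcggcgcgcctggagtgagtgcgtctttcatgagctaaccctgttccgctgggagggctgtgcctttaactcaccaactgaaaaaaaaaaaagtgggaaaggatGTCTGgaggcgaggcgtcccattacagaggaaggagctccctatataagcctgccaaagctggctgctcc
Postn: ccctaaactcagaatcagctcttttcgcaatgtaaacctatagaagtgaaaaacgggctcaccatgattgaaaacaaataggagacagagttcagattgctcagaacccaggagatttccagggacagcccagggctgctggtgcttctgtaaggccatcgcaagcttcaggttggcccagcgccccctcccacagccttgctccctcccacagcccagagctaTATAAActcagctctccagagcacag
Tgfbi: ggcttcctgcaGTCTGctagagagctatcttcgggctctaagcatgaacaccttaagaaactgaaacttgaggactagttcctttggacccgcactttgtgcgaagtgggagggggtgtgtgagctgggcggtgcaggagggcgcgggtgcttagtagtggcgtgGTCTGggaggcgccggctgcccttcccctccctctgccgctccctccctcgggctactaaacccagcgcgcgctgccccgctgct
TATAAA stood 26 to 21 bases before the start of Postn and 205 to 200 bases before this start of Tnc, and was not found in the Tnn and Tgfbi runs. Only these exact letters were marked, so the similar letters TATATAAG near the end of the printed Tnc run are not in capitals. Of 32851 such runs of all genes in the table, 12.4% held TATAAA and 42.2% held CAGAC. The SMAD box occurred once before Tnc, at 70 to 66 bases, and at a pair of places before Tgfbi, and not in the printed runs of Tnn and Postn. These matches depend on the start: before the other start of Postn, CAGAC stood at 191 to 187 bases and TATAAA was not found, and before the other start of Tnc, TATAAA stood at 126 to 121 bases and CAGAC was not found. CAGAC was also in the runs of Tnr and Tnxb. The E-box CANNTG, found in 66.2% of all runs, occurred in those of Tnc and Tnxb, and the AP-1 site TGANTCA, found in 6.75%, in that of Tnxb. The CArG box was in 1.47% of all runs and in none of the members. None of these matches shared bases with another, and the 3 genes that were high in mutants had no motif of this set in common.

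Among the controls, all 6 members were highest on replicate 1, the array with the least marrow marker signal, and lowest on replicate 3, the array with the most. Control replicate 1 exceeded control replicate 3 by 3.72-fold for Postn, 2.28-fold for Tnc and 1.5-fold for Tgfbi. For Tnn the measured ratio was 1.94-fold, but Tnn was under background on control replicate 3, which limits that ratio. Tnxb spanned 1.10-fold between the same arrays. Among the mutants, where the marrow markers were low, Tnn, Tnc, Postn and Tgfbi were each lowest on replicate 2, and Tnxb was highest on it. The mutant arrays spanned 1.40-fold for Tnn, 1.36-fold for Tnc and 1.03-fold for Tgfbi. With control replicate 1 as the only control, the difference was 3.44 for Tnn, 1.78 for Tnc, 2.64 for Postn, 0.06 for Tnxb and -0.14 for Tgfbi. With the marrow marker mean as a covariate, the difference was 1.89 for Tnn (SE 0.48), -0.23 for Tnc (SE 0.41), -0.44 for Postn (SE 0.50) and -1.07 for Tgfbi (SE 0.30), and no member was called. Tnn did not exceed background on control replicates 2 and 3, which limits its slope among the controls. Its 1.89 can therefore not be ranked against the values of Tnc and Postn. No array has a marrow level between the groups, so that fit extends the slope among arrays of each group across an empty range. Under it the medians of the markers that form the covariate were 2.09 for erythroid, -0.81 for neutrophil and 0.15 for B lymphoid. Without the covariate they were -3.58, -4.03 and -1.91 in that order. In RNA of a whole chondrocyte sample, fewer cells of a type and less RNA per cell cannot be told apart. The part of the marrow cells in these differences was not tested otherwise.

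**Figure D2:**
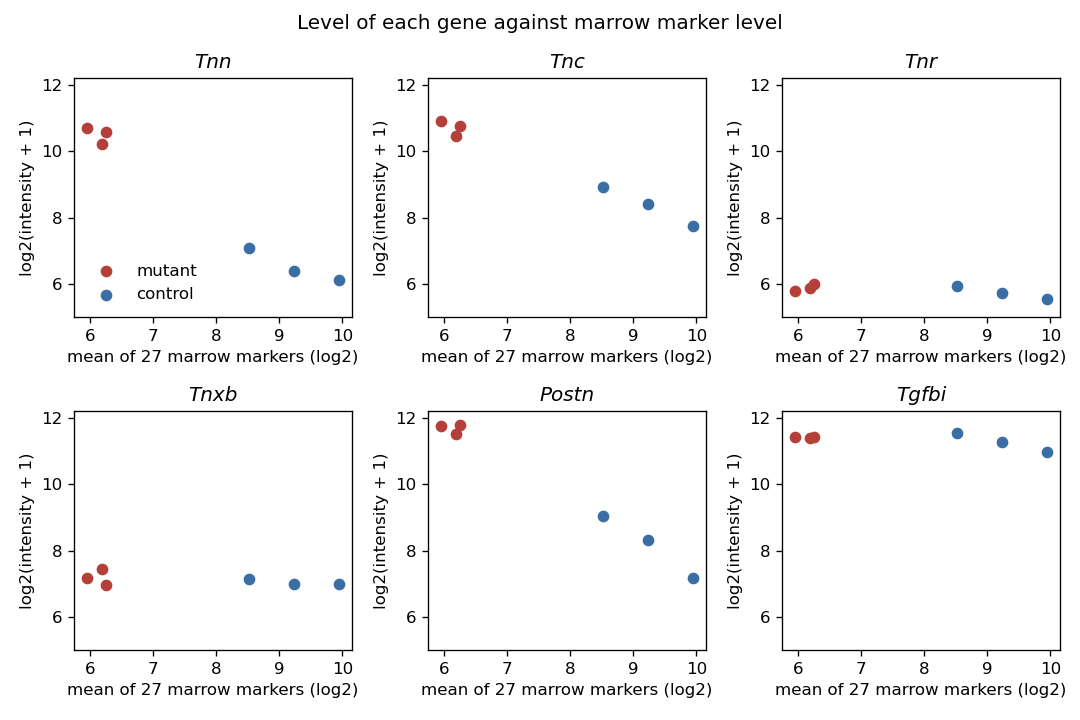
Level of each member as log2(intensity + 1) against the mean log2 level of 27 erythroid, neutrophil and B lymphoid markers, 1 point per array, mutants in red and controls in blue. Marker means lie between 5.95 and 6.25 in mutants and between 8.52 and 9.95 in controls, and within the controls Postn, Tnc, Tnn and Tgfbi are lowest on the array with the highest marker mean.

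Leaving out any 1 array kept the differences of the 3 high genes positive, between 3.78 and 4.25 for Tnn, 2.05 and 2.64 for Tnc, and 3.00 and 3.94 for Postn. The difference of Tgfbi lay between -0.0041 and 0.29. It was at its lowest without control replicate 3. Other normalisations and another pseudocount left all of these values close to those given, with 3.77 to 3.99 for Tnn.

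**Figure D3:**
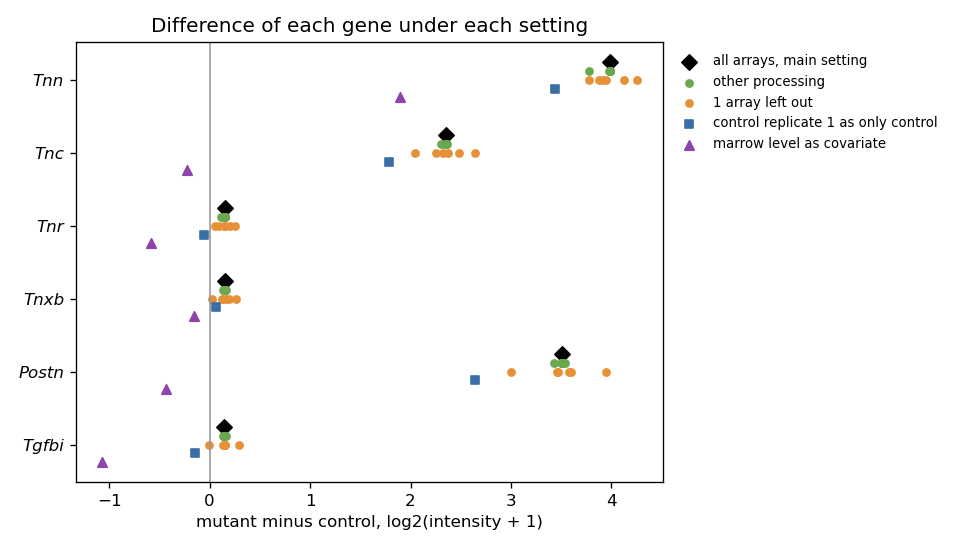
Mutant minus control difference of each member on the log2 scale, with all arrays in black, other processing in green, 1 array left out in orange, control replicate 1 as the only control in blue, and the marrow level as a covariate in purple. Tnn is positive under every setting drawn, while Tnc and Postn are positive under all but the covariate, where they are at -0.23 and -0.44. Under the covariate Tnn is limited by the background, which control replicates 2 and 3 did not exceed, so it cannot be ranked against Tnc and Postn.

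Integrins and other receptors were followed next, since they are the surface partners through which these proteins act. This list and those below were chosen with earlier results of these data known, so their counts and medians are given as a description. Over all genes tested, 7.84% were called higher and 6.82% lower. Of 13 tested integrin chains that bind tenascins, periostin or Tgfbi, 3 rose, none fell and 10 were not called, with a list median of 0.09. Itgb3 was called lower without control replicate 1 and with centred array medians, and Itga6 and Itga7 without control replicate 3. Itga9, a chain of a tenascin-C receptor, was at 105, 126 and 106 in mutants, against 58.9, 60.2 and 60.05 in controls. All 3 controls were under background, so it rose at least 1.21-fold, with the controls set to the background of their arrays (adjusted p = 0.00178 for the measured values). Itgb5, which pairs with the alpha-v chain to bind periostin, rose by 0.81 (SE 0.10, adjusted p = 0.00267). Itgb1, the common beta chain, rose by 0.39 (adjusted p = 0.0196), and its adjusted p reached 0.101 without mutant replicate 3 and was over the threshold without control replicate 2 and without each other mutant array. Itgb3, another of the beta chains that pair with alpha-v, was at a difference of -1.09 and was not called (adjusted p = 0.0782), and Itgav differed by 0.09 (adjusted p = 0.571). Itga8, a chain of a tenascin-W receptor, differed by 0.36 (adjusted p = 0.181). Of 5 other surface partners tested, Egfr, the EGF receptor, rose by 0.92 (SE 0.13, adjusted p = 0.00519), and the other 4 were not called.

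Matrix partners of the family were higher in mutants in part. Of 21 genes tested, 10 rose and none fell, with a median of 0.54. Over all genes tested, 7.84% were called higher and 6.82% lower, with a median of 0.03. Nothing is read from the list against these values, since it was chosen with earlier results of these data known. Ccn3, a matricellular protein that binds periostin, rose by 2.28 (SE 0.29, adjusted p = 0.0033). It was at 1012, 843 and 1094 in mutant replicates 1, 2 and 3, against 309.55, 204 and 126 in control replicates 1, 2 and 3, highest again on control replicate 1. The fibrillar collagen genes Col1a1 (1.91, SE 0.15, adjusted p = 0.00052) and Col3a1 (1.73, SE 0.19, adjusted p = 0.00184) rose, as did Vcan, the large proteoglycan versican (1.39, SE 0.21, adjusted p = 0.00613). Col1a2, Col5a1, Col5a2, Col12a1, Lox and Eln made up the rest of the 10. The cartilage genes Col2a1 and Acan differed by 0.04 and -0.03 and were not called, and neither was Fn1, the fibronectin gene, at 0.07 (adjusted p = 0.648). Without control replicate 3 the list median was 0.26. With control replicate 1 as the only control it was 0.28, and Ccn3 differed by 1.66.

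Markers of fibrous tissue moved with these genes. Of 10 fibrous and tendon markers, 6 were called higher and none lower, with 3 called higher without control replicate 2 or without mutant replicate 3, and Col3a1, Dcn, Scx and Mkx stand on both kinds of list. The summed intensity of the 10 was 15647 to 16061 in mutants and 10619.9 to 12105 in controls, and all 10 exceeded background on every mutant array. Macrophage markers summed to 2476 to 3539 in mutants and 1419 to 1708 in controls, with 7 of 7 called higher. That count was 1 without control replicate 2 and 3 without mutant replicate 3. Endothelial markers summed to 1457 to 1717 in mutants and 880.2 to 973 in controls, with 7 of 9 called higher, but 3 without mutant replicate 2 or without mutant replicate 3 and 4 without control replicate 2. Of the 7, Kdr and Tie1 exceeded background in no control, and Kdr passed the filter on low values through the mutants, so its call is only counted. With the controls set to the background of their arrays, the mutants were at 0.93-fold for Kdr and 1.06-fold for Tie1. Smooth muscle and pericyte markers summed to 3839 to 4310.2 in mutants and 2502 to 2875 in controls, with 4 of 7 called higher and 1, Cspg4, lower. Cspg4 was not called when any array other than control replicate 3 was left out. Osteoblast markers overlapped, at 6505 to 7316 in mutants and 6363 to 7359.6 in controls, with 1 of 5 tested, Phex, called lower, and Mepe was under background on all arrays. Phex was not called without control replicate 2 or without any 1 mutant array, and Alpl was called lower as well without control replicate 3. The part of these cell types in the differences of Tnn, Tnc and Postn was not tested.

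Genes that act upstream of the family were followed last. Of 12 TGF-beta pathway genes tested, 3 rose and 1 fell, with a median of 0.12, and 1 was called higher without mutant replicate 1 or without mutant replicate 3. Smad3, a transducer of the pathway, rose by 0.53 (SE 0.08, adjusted p = 0.00544), at 749, 756 and 751 in mutants, against 529, 518 and 515 in controls. The ligand gene Tgfb3 rose by 0.71 (SE 0.13, adjusted p = 0.0118) and the coreceptor gene Tgfbr3 by 0.61 (SE 0.13, adjusted p = 0.0213), with adjusted p of 0.0611 and 0.0895 without mutant replicate 3. Both were also over the threshold without mutant replicate 1, and Tgfbr3 without control replicate 2. The inhibitor gene Smad7 fell by 0.40 (adjusted p = 0.0388), and was over the threshold when any array other than control replicate 3 was left out, with an adjusted p of up to 0.155. The other 8, Tgfb1 and Tgfb2 among them, were not called.

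Of 18 candidate upstream genes, mostly transcription factors of mesenchyme and members of the interleukin and actin-SRF routes, 4 rose and none fell, with a median of 0.17. The paired-related homeobox genes Prrx2 and Prrx1, of limb mesenchyme, rose by 1.82 (SE 0.18, adjusted p = 0.00131) and 1.56 (SE 0.11, adjusted p = 0.000337). Prrx1 was at 892, 987 and 1077 in mutant replicates 1, 2 and 3, against 347, 344 and 304 in control replicates 1, 2 and 3. Twist1, a basic helix-loop-helix factor of mesenchyme, rose by 1.46 (SE 0.12, adjusted p = 0.000691), and Scx, a factor of tendon cells, by 0.62 (SE 0.10, adjusted p = 0.00813). All 4 exceeded background in every mutant, but Prrx2 and Scx did so in 1 of 3 controls and Twist1 in 2 of 3, so the differences of these 3 are limited by the background of the controls. Among the controls, the SD on the log2 scale was 0.11 for Prrx1, 0.15 for Twist1, 0.13 for Scx and 0.39 for Prrx2, against 0.95 for Postn. The background limits that spread for Twist1, Scx and Prrx2. All 4 were highest on control replicate 1 and lowest on control replicate 3, as was Postn.

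**Figure D4:**
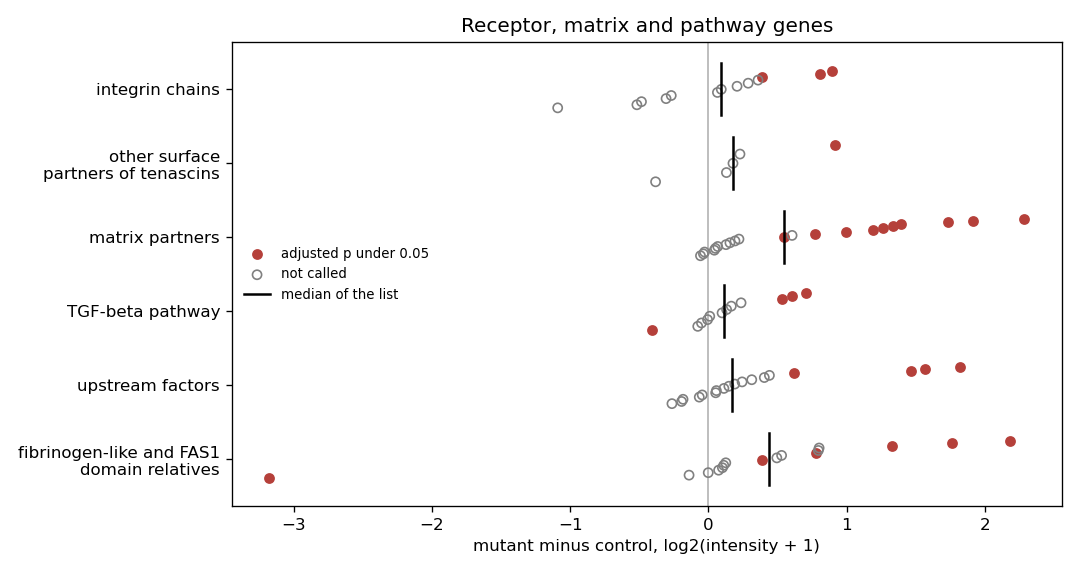
Mutant minus control difference on the log2 scale of each tested gene of 6 lists, filled red where the adjusted p was under 0.05 and open where it was not, with the median of each list as a black bar. The median is 0.54 for the matrix partners, 0.26 without control replicate 3, and 0.09 for the integrin chains.

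Several genes followed the members closely over the 6 arrays, by Pearson correlation of log2 levels, given as a description since all share the same arrays and the same separation of the groups. Nearest to Tnn were Ctsl, a lysosomal protease gene, Oaf and Ptprd, a receptor phosphatase gene, at r of 0.999 each. After group means were removed these were 0.979, 0.982 and 0.954. Nearest to Tnc were Ccn3, Fndc1 and Timp2, an inhibitor of metalloproteinases, at r of 0.999 each, and 0.994 to 0.999 after group means were removed. Nearest to Postn were Cped1, Palmd and Gnl3l, whose differences of 0.92, 1.19 and 0.18 were far smaller than that of Postn. Such likeness was common, with 97, 107 and 123 genes over an r of 0.99 for Tnn, Tnc and Postn. Tgfbi was nearest to Suclg2, Frmd4b and P3h4, with 13 genes over that value. Tnxb was nearest to Prox1, Lztfl1 and Pigz, with 0 genes over it. The mean log2 level of Prox1 was 5.94 in mutants and 5.89 in controls, under the background of every array. Tnr, which was under background, was nearest to Elk1, Scd3 and Txndc17.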

How the data were processed

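Per the labels' protocols, biotinylated cDNA was made from 300 ng of total RNA with a whole-transcript kit and hybridised to Affymetrix arrays. The deposited intensity values, 1 per probe set, were used as they are, on a linear scale from 0.74 to 9001. Array medians were 82.4 to 90.5. The authors' summary and normalisation of probes are not given in the sources used here, and the 3 arrays per group limit precision. The annotation gives 1 gene for 21789 of the 35512 probe sets and several for 1621, and does not list 12102. Symbols were updated by gene number through RefSeq of GRCm38.p6.

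Values were taken as log2(intensity + 1). Probe sets in the lowest 25% of means were left out, and the probe set with the highest mean was kept per gene, which left 17020 genes. Groups and replicate numbers came from titles. The comparison was a two-sided limma fit (version 3.58.1, R 4.3.3; lmFit, then eBayes). P-values were adjusted by Benjamini-Hochberg across every gene tested, with a call at 0.05. The test was also run on simulated arrays with independent noise for each gene and array. Such arrays hold no marrow difference shared by many genes, so they cannot show how the test behaves under one. Named genes were the members, Stk11, up to 4 called genes of each list with the largest difference and groups apart, and the 3 genes most like each member. Other genes are named to complete a list and were picked after their values were seen. The members, lists and alternatives were chosen with earlier results of these data known. No set test was run. Exact permutation of 3 against 3 arrays was not used, since it cannot reach 0.05.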

Additional observations from a re-analysis of the deposited data

How the results depend on the processing

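The count of members called was 3 under quantile normalisation, centred medians, no filter and a filter at the median, which drops Tnr. It was also 3 with the mean of probe sets, an intensity trend, a pseudocount of 16 and without any 1 array. This count lends the members no support, since they were chosen on these arrays. The count of all genes called was 2496, lay between 936 and 3282 without 1 array, the lowest without mutant replicate 3 and the highest without control replicate 1, with 1329, 1198 and 1185 without control replicate 2 and mutant replicates 1 and 2, and the count of pathway genes called was 28, with 20 to 33 without 1 array. With the marrow level as a covariate 5 genes, 0 members and 0 pathway genes were called, and the difference was -0.23 for Tnc, -0.44 for Postn, 0.32 for Stk11, -0.11 for Egfr, -0.49 for Ccn3, -0.14 for Tgfb3, 1.71 for Fcnb and -1.12 for Mfap4. Under the same fit it was 0.30 for Col3a1, 0.26 for Prrx2 and 0.02 for Scx, but 0.87 for Twist1, 1.05 for Prrx1 and 1.22 for Vcan. List medians under it were -0.03 for matrix partners, -0.14 for integrin chains, -0.14 for the TGF-beta pathway and -0.11 for upstream factors. They were 0.02 for fibrous and tendon markers and -0.03 for smooth muscle and pericyte markers. They were 0.63 for the domain relatives, 0.84 for macrophage and 0.95 for endothelial markers. The marrow level separates the groups completely, and the cause was not tested further. With control replicates 2 and 3 left out a single control remains, so no call was counted. With the replicate number as a block 2031 genes, 3 members and 26 pathway genes were called; same-numbered arrays deviated together at r of 0.08, 0.21 and -0.08, so the numbers were not taken to pair the samples. Itgb1 and Smad7 lost their calls under the block, with adjusted p of 0.0557 and 0.0681, and Smad7 also with centred medians. Signal near background limits Tnr and Angpt2, Tnn, Itga9, Prrx2, Scx, Stab1, Twist1, Mfap4, Kdr and Tie1 in controls, and Fcnb in mutants.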

Other observations

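Genes that share a domain with the family formed a further group. Of 16 tested genes with fibrinogen-like or FAS1 domains, 5 rose and 1 fell, with a median difference of 0.44. The number that rose was 3 without mutant replicate 1 or without mutant replicate 3, and the median was 0.26 with no filter and 0.77 with a filter at the median level. Mfap4, a matrix protein with a fibrinogen-like domain, rose by 2.18 (SE 0.37, adjusted p = 0.00957), at 897, 706 and 670.09 in mutant replicates 1, 2 and 3, against 308, 151 and 96.3 in control replicates 1, 2 and 3, with 2 of 3 controls above background. Angptl7, a secreted angiopoietin-like protein, rose by 1.77 (SE 0.18, adjusted p = 0.00131). It was at 695, 740.37 and 1124 in mutants, against 229, 256 and 249.79 in controls, so its controls did not show the spread seen for Postn and Mfap4.

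Stab1, a scavenger receptor of macrophages and endothelium with FAS1 domains, rose by 1.33 (SE 0.19, adjusted p = 0.00461), with 1 of 3 controls above background. Of 7 macrophage markers, 7 were called higher, but 1 without control replicate 2 and 3 without mutant replicate 3. Fcnb, a ficolin gene of neutrophil precursors, was under background in all mutants and passed the filter on low values through the controls. Because the controls carried it past the filter, its adjusted p is not read and its call is only counted. It was at least 3.87-fold lower in mutants, with the mutants set to the background of their arrays. Fcnb was highest on control replicate 3, where the marrow markers were highest too. Angptl1 and Angpt2 made up the other calls of this list, and Angpt2 was under background on all 6 arrays.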
